A study of Mus musculus with 9 samples.

Results

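Osteosarcoma cell lines were compared with Kusa4b10 cells in both of the states in which these cells were grown, and the genes described here are those for which all 3 tumour lines lay on the same side of all 6 Kusa4b10 arrays. Of 19938 genes measured, 3574 (17.9%) met that rule, 1685 with the lines above every Kusa4b10 array (8.45%) and 1889 with the lines below every one (9.47%). The lines came from adult C57BL/6 mice of genotype Osx-Cre p53fl/fl Rbfl/fl, in which Cre is driven by the Osx (Sp7) promoter of the osteoblast lineage and removes both floxed tumour suppressor genes there. Each of the 3 lines is labelled fibroblastic, was grown below confluence at a passage below 8, and supplied 1 array. Kusa4b10 is a mouse bone marrow stromal line that can mature into osteoblasts, and the labels give it no Cre, no floxed allele, no strain, no age and no sex. It supplied 3 arrays of undifferentiated pre-osteoblasts and 3 arrays of osteoblasts, the latter after 21 days of culture with ascorbate. Tumour state, genotype, line of origin, strain and culture history therefore cannot be told apart. The Kusa4b10 replicates are described as independent samples of 1 line, so their spread covers that line only.

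p53, encoded by Trp53, is a transcription factor that is stabilised after DNA damage and activates genes for cell cycle arrest, DNA repair and cell death. RB, encoded by Rb1, holds the E2F transcription factors inactive until cyclin-dependent kinases phosphorylate it, and E2F factors then activate genes for DNA replication. INK4 proteins and ARF act upstream, INK4 proteins on the kinases that phosphorylate RB and ARF on the p53 inhibitor Mdm2. Both pathways are recurrently lost in human osteosarcoma, a bone tumour whose cells keep features of the osteoblast lineage to varying degrees.

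Levels are log2 values, so a difference of 1 is a 2-fold difference. A difference is the mean of the 3 lines minus the mean of both Kusa4b10 group means, given with its standard error (SE), and a gene is called higher or lower when its Benjamini-Hochberg adjusted p from limma over all 19938 genes was below 0.05. Over all genes 5304 were called (26.6%), 2595 higher (13%) and 2709 lower (13.6%). Centring every array on its median changed that split to 3344 higher and 2127 lower, and a further quantile normalization changed it to 3089 and 2522, with the median difference over all genes moving from -0.02 to 0.04 in either case. The separated genes turned from 1685 above and 1889 below to 2700 and 1369 with centring, and to 2616 and 1616 with the further normalization. The labels of the lines were checked first. Line 3 is labelled female, yet its Y-linked transcripts Kdm5d (8.76), Uty (9.80) and Eif2s3y (10.06) were at the levels of line 2, labelled male, where they measured 8.74, 9.51 and 9.88, and its Xist level was 5.56. Line 1, also labelled female, had Xist at 12.71 and Kdm5d, Uty and Eif2s3y at 5.12, 4.82 and 3.91. The label and the sample of line 3 may therefore be mixed up, which was not tested, and values printed for line 3 carry that doubt. The sex label itself does not enter any comparison. Without line 3, the set of genes with the lines above all Kusa4b10 arrays held 2395 genes and the set with the lines below held 2960. They held 2197 and 2355 without line 1, and 2186 and 2764 without line 2. Leaving out any line can only keep or enlarge both sets, so these counts do not check the label. Ibsp, the bone sialoprotein gene, measured 12.91 to 13.62 in Kusa4b10 osteoblasts and 5.97 to 6.72 in pre-osteoblasts, as the culture labels would have it, and 6.59, 6.34 and 8.13 in lines 1, 2 and 3. Markers of haematopoietic cells (18 genes), endothelium (13 genes) and epithelium (16 genes) gave no gene that was both on one side and called (at most 1 per direction and list with 1 array left out), and the mean level of the haematopoietic list was between 6.58 and 6.64 on every array. The targeted Rb1 measured 9.26, 9.67 and 9.85 in the lines, 10.63 to 10.65 in osteoblasts and 9.17 to 9.28 in pre-osteoblasts. Rb1 is not among the separated genes, and its difference of -0.35 ± 0.11 (SE) had an adjusted p of 0.0554. Rb1 was called lower without line 3 and under either filter on gene level. Where its probes lie relative to the floxed exon was not examined, so the level does not check the deletion, and Trp53 is not analysed here.

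Among the 1685 genes with the lines above, 1568 were also called higher (7.86% of all genes), and among the 1889 with the lines below, 1664 were called lower (8.35%). The rule and the fit used the same values, so these calls describe the separated genes and are not independent evidence for them. The median difference was 0.58 for the genes above and -0.48 for the genes below. A difference of at least 2-fold was present in 381 called genes above and 254 below, of at least 4-fold in 92 and 56, and of at least 8-fold in 29 and 16. Most separations were narrow, with a median gap between the nearest line and the nearest Kusa4b10 array of 0.17 above and 0.14 below. The gap reached 0.5 in 275 genes above and 213 below, and every one of these was still separated after centring or a further quantile normalization. At the threshold itself, Hsbp1 (lines 12.09 to 12.29, Kusa4b10 11.89 to 12.09) and Tlr1 (lines 6.39 to 6.96, Kusa4b10 5.78 to 6.39) lay just inside with the lines above, and Arsi and AF357341 just outside. Soga1 (lines 8.53 to 8.66, Kusa4b10 8.66 to 8.999) and Cyp2b23 lay just inside with the lines below, and Apobr and Ccdc9 just outside. Another 2072 genes were called although at least 1 line overlapped the Kusa4b10 range, 1027 of them higher and 1045 lower. With the 6 Kusa4b10 arrays fitted as 1 group, the difference between the states enters the spread, and 81 of 258 called genes followed there lost their call.

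Some genes were measured by further probe sets that the rule did not use. For genes with the lines above, 133 of 220 such probe sets also had the lines above, none had them below and 87 overlapped. For genes with the lines below, 133 of 187 also had the lines below, 2 had them above and 52 overlapped. Among 1444 further probe sets of genes outside the set, 69 had the lines above and 62 below. Further probe sets read other parts of the same transcripts in the same 9 RNA samples, so they bear on the probes and not on the cells.

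**Figure D1:**
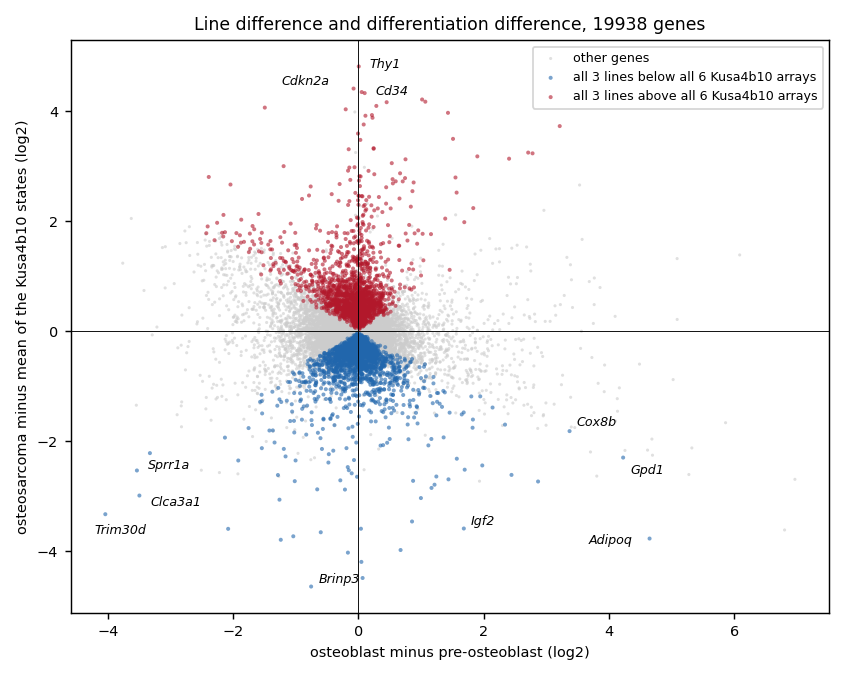
Each point is 1 of 19938 genes. The horizontal axis is the osteoblast minus pre-osteoblast difference and the vertical axis the difference of the lines from the mean of both Kusa4b10 states, both in log2. Red points are the 1685 genes with the lines above all 6 Kusa4b10 arrays and blue points the 1889 with the lines below. Cdkn2a, Thy1 and Cd34 sit at the top with state differences near 0, and the labelled blue genes at the far left and right differed between the Kusa4b10 states by more than 3.

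Separation from both states did not mean that the states were alike. Of the genes above, 441 (26.2%) were called between osteoblasts and pre-osteoblasts, and of the genes below 537 (28.4%), beside 26.1% of all genes (10.3% higher in osteoblasts and 15.8% lower). In the plot of line difference against differentiation difference the separated genes form a wedge, because the rule bounds how far the states can differ. The lines differed among themselves more in the genes above, with a median range over the lines of 0.32 beside 0.23 in the genes below and 0.22 over all genes. Line 2 was the highest of the lines in 857 of the genes above (50.9%, beside 40.1% of all genes) and line 3 the lowest in 778 (46.2%, beside 31.6%).

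The genes that stood furthest above Kusa4b10 included Cdkn2a, Thy1 and Cd34. Cdkn2a, which encodes the tumour suppressors p16INK4a and p19ARF, measured 11.79, 11.46 and 12.28 in lines 1, 2 and 3, 7.39, 7.43 and 7.34 in osteoblasts, and 7.55, 7.41 and 7.44 in pre-osteoblasts. All lines were high, both Kusa4b10 states were low and alike, and the difference was 4.42 ± 0.15, or 21.3-fold (adjusted p = 2.73e-06). The array does not separate the products of this locus here. Thy1, a surface glycoprotein of fibroblasts and mesenchymal progenitors, measured 11.95, 11.00 and 12.39 in the lines, 6.93, 6.86 and 7.11 in osteoblasts, and 7.07, 6.79 and 7.02 in pre-osteoblasts. It had the largest difference of all separated genes, 4.82 ± 0.26 or 28.2-fold (adjusted p = 2.65e-05), with line 2 the lowest of the lines. Cd34, a sialomucin of haematopoietic, endothelial and some stromal progenitors, measured 12.28, 12.36 and 11.12 in the lines, 7.80, 7.78 and 7.34 in osteoblasts, and 7.30, 7.46 and 7.86 in pre-osteoblasts. Its difference was 4.33 ± 0.28, or 20.2-fold (adjusted p = 5.44e-05). These 3 genes were named in choosing the set, and each kept its call under all 18 alternative settings.

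Igfbp6, a secreted protein that binds insulin-like growth factor 2, measured 11.43, 10.82 and 11.27 in the lines and 6.88 to 7.27 over the Kusa4b10 arrays, a difference of 4.04 ± 0.13 (adjusted p = 2.02e-06). Tfpi, the tissue factor pathway inhibitor of coagulation, measured 11.10, 10.21 and 10.50 against 6.19 to 6.71. For these genes the lines were close together and both Kusa4b10 states sat far below them. Other large differences varied more between lines. Gpx3, a secreted glutathione peroxidase, measured 12.34, 10.41 and 11.14 in the lines, 7.59 to 7.76 in osteoblasts and 6.39 to 6.80 in pre-osteoblasts. Mfap5, a microfibril-associated glycoprotein, measured 12.60, 10.40 and 12.37 in the lines and 7.14 to 7.96 over the Kusa4b10 arrays. Dpt, the matrix protein dermatopontin, measured 10.92, 8.43 and 8.17 against 5.10 to 5.60. The homeobox gene Meox2 measured 10.53, 7.74 and 10.45 against 5.62 to 6.00. Line 2 was the lowest in Gpx3, Mfap5 and Meox2, whereas line 1 stood above the other lines in Dpt, and no line reached the Kusa4b10 range in any of them. Others among the 15 largest were Emb, the lactate transporter chaperone embigin (4.22), Cnn1 (4.07), Serping1 (3.97), Tenm3, a teneurin of cell contacts (3.93), and Neto2, an auxiliary subunit of kainate receptors (3.88). Cnn1, the smooth muscle calponin, is also on a list of muscle and myofibroblast markers, on which 3 of 17 genes were above and called and 1 below (17.6% and 5.88%, with none below without line 1). Ang2, a ribonuclease of the angiogenin family, measured 9.63, 8.17 and 11.67 against 6.73 to 7.56, with lines farther apart than for most separated genes, a difference of 2.73 ± 0.62 (adjusted p = 0.0132) that was 1.80 without line 3. Serpina3n, a serine protease inhibitor, measured 11.53, 7.04 and 11.37 against 6.41 to 6.77, and its call (3.31 ± 0.89, adjusted p = 0.027) was lost without line 1, without line 3 and without single Kusa4b10 arrays.

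**Figure D2:**
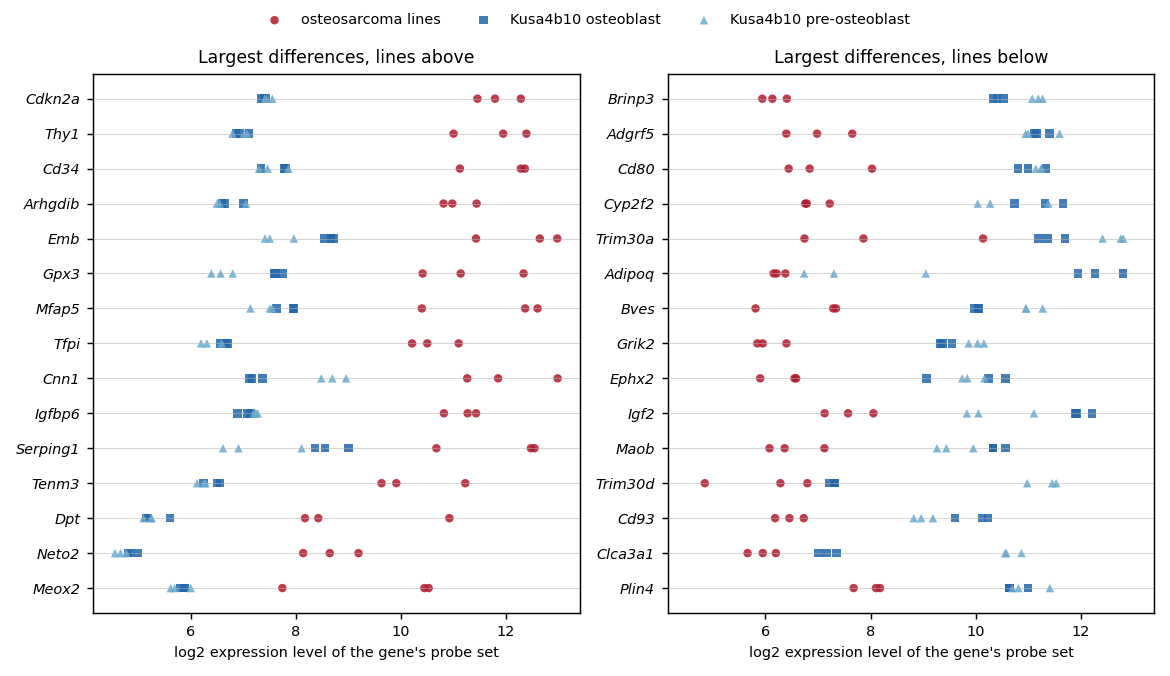
Log2 level on each array for the 15 called genes with the largest difference above (left) and below (right), among genes whose higher side exceeds the median gene level. Circles are the 3 osteosarcoma lines, squares the 3 Kusa4b10 osteoblast arrays and triangles the 3 pre-osteoblast arrays. No circle overlaps a square or triangle in any row, and the circles spread widest in Trim30a (6.74 to 10.14).

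The genes that stood furthest below Kusa4b10 were more mixed in function. Brinp3, a gene of the BMP and retinoic acid inducible neural-specific family, measured 5.94, 6.41 and 6.13 in the lines, 10.41, 10.53 and 10.34 in osteoblasts, and 11.19, 11.08 and 11.28 in pre-osteoblasts. Its difference of -4.65 ± 0.10 was the largest of the genes below (adjusted p = 8.11e-07). Adgrf5, an adhesion G protein-coupled receptor, measured 6.40, 6.98 and 7.65 in the lines and 10.95 to 11.60 over the Kusa4b10 arrays, a difference of -4.20 ± 0.26. Cd80, a costimulatory ligand of T cells better known from antigen-presenting cells, measured 8.03, 6.84 and 6.44 against 10.81 to 11.34 (-4.03 ± 0.31, adjusted p = 0.000116). The Kusa4b10 arrays lay closer together than the lines for Adgrf5 and Cd80, and the lines spread by more than 1 in both. Igf2, the imprinted insulin-like growth factor 2, measured 7.57, 7.13 and 8.06 in the lines, 12.22, 11.93 and 11.90 in osteoblasts, and 11.11, 9.84 and 10.05 in pre-osteoblasts. Its difference was -3.59 ± 0.30 (adjusted p = 0.000167), so the growth factor was low in the lines while its binding protein gene Igfbp6 was high. Grik2, a kainate-type glutamate receptor subunit, measured 6.40, 5.85 and 5.95 against 9.34 to 10.16 (-3.66 ± 0.13). Cyp2f2, Ephx2 and Maob, enzymes of xenobiotic, epoxide and monoamine metabolism, had differences of -3.98, -3.59 and -3.46, and Bves, a Popeye domain protein of muscle, Cd93, a glycoprotein of endothelium and myeloid cells, and the lipid droplet gene Plin4 had -3.73, -3.04 and -2.88.

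Several genes were low in the lines against both states but by very different amounts. Adipoq, the adipocyte hormone adiponectin, measured 6.16, 6.38 and 6.21 in the lines, 12.81, 11.95 and 12.28 in osteoblasts, and 9.05, 6.74 and 7.30 in pre-osteoblasts, where the second array lay nearest to the lines. Trim30d, of an interferon-inducible tripartite motif family, measured 6.80, 6.28 and 4.84 in the lines, 7.22 to 7.33 in osteoblasts and 10.98 to 11.54 in pre-osteoblasts. Gpd1, cytosolic glycerol-3-phosphate dehydrogenase, measured 6.60, 6.66 and 6.82 in the lines, 10.44 to 11.75 in osteoblasts and 6.83 to 6.90 in pre-osteoblasts, so the separation from the latter was a few hundredths. For Gpd1 the lines differed from osteoblasts by -4.41 and from pre-osteoblasts by -0.19 ± 0.27 (adjusted p = 0.7). Adipoq, Trim30d and Gpd1 lost their call with the Kusa4b10 arrays as 1 group, with adjusted p between 0.132 and 0.302. The rule thus admitted genes that were not called against 1 of the states.

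A larger share of the listed p53 target genes than of all genes lay below both states. Of 37 measured targets, 13 were below and called (35.1%, beside 8.35% of all genes) and 3 were above and called (8.11%, beside 7.86%), with a median difference of -0.27 beside -0.02 over all genes. The count below was 13 to 15 when any 1 array was left out and 10 to 13 under the settings that keep all arrays and genes. Cdkn1a, also a p53 target, was not on this list but on that of INK4 and related inhibitors, and its value is not given. Of the 7 genes measured on that other list, 5 were called higher in the fit and none lower. Over all genes these calls were 13% and 13.6%. The share of a list is a description, to be read against 7.86% of all genes above and called and 8.35% below and called, here and in the lists that follow. Eda2r, a death receptor of the tumour necrosis factor receptor family, measured 7.80, 6.86 and 6.58 in the lines, 9.15, 9.15 and 9.38 in osteoblasts, and 9.59, 9.81 and 9.73 in pre-osteoblasts, a difference of -2.39 ± 0.23 (adjusted p = 0.000315). Trp53inp1, which promotes autophagy and cell death downstream of p53, measured 10.20, 9.31 and 10.48 in the lines, 12.35, 11.98 and 12.27 in osteoblasts, and 12.01, 11.43 and 11.68 in pre-osteoblasts, a difference of -1.96 ± 0.25 (adjusted p = 0.000995). All lines were below all Kusa4b10 arrays for both genes by about 1 or more. The stress-induced Sesn2 and the exonuclease gene Aen followed with -1.17 ± 0.20 and -1.16 ± 0.10. Of the antiproliferative and checkpoint targets, Btg2 had -0.83, Sesn1 -0.80, Zmat3 -0.70 and Ccng1, encoding cyclin G1, -0.47. The p53 inhibitor Mdm4 had -0.63 ± 0.10. Dcxr (-1.06), Cd82 (-0.94), the nucleotide excision repair gene Xpc (-0.44) and the BH3-only death gene Bbc3 (-0.27) made up the rest. Xpc and Bbc3 lost their call with the Kusa4b10 arrays as 1 group (adjusted p = 0.202 and 0.16). In Bbc3 and Xpc the lines nearly touched the pre-osteoblasts, with line values of 7.85, 7.85 and 7.98 for Bbc3 and a lowest Kusa4b10 value of 7.98.

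The targets with the lines above were Plk2, a polo-like kinase (0.78 ± 0.11, adjusted p = 0.0564 with the Kusa4b10 arrays as 1 group), Abcb1a, a drug efflux pump (0.67 ± 0.17, and 0.43 without line 3), and Rap2b, a small GTPase (0.54 ± 0.11). Mdm2, the ubiquitin ligase that degrades p53 and itself a p53 target, was not separated. It measured 12.14, 10.22 and 9.92 in the lines and 10.92 to 11.20 over the Kusa4b10 arrays. Line 1 was above every Kusa4b10 array and lines 2 and 3 below every one, so the mean difference of -0.27 ± 0.42 (adjusted p = 0.71) describes no line. The miRNA gene Mir34a, another p53 target, was not on the list and was added after its values were seen. It measured 5.21, 5.46 and 5.24 in the lines, 5.85 to 5.93 in osteoblasts and 6.16 to 6.48 in pre-osteoblasts. Its difference was -0.83 ± 0.09 (adjusted p = 0.000444). Cdkn1a, also off the list, has no value here, so Mir34a does not extend the pattern of the list.

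**Figure D3:**
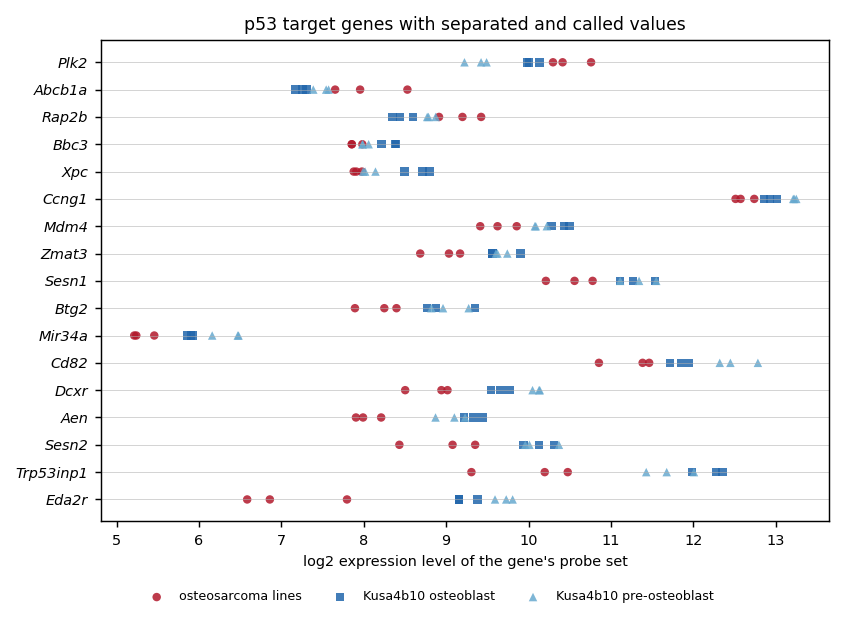
Log2 level on each array for the 16 p53 target genes that were separated and called, with Mir34a added. Circles are osteosarcoma lines, squares osteoblasts and triangles pre-osteoblasts. The lines lie to the left in 14 of the rows, Mir34a among them, farthest in Eda2r. They lie to the right only in Plk2, Abcb1a and Rap2b.

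Genes of DNA replication under E2F control were above both states in part. Of 43 measured, 13 were above and called (30.2%, beside 7.86% of all genes) and none below, with a median difference of 0.95. The count depended on single arrays, reaching 20 without line 3 and 30 without the second pre-osteoblast array, and it was 8 to 16 under the settings that keep all arrays and genes, 8 with the Kusa4b10 arrays as 1 group. Against osteoblasts alone 41 of the 43 were called higher with a median of 1.55, beside 14.7% of all genes called higher there. Against pre-osteoblasts alone 8 were called higher with a median of 0.46, beside 9.96% of all genes called higher there and 23.5% called in either direction. Both comparisons share the tumour arrays. Mcm6, a subunit of the replicative helicase, measured 10.95, 11.08 and 10.75 in the lines, 8.56, 8.96 and 8.52 in osteoblasts, and 9.78, 10.68 and 10.35 in pre-osteoblasts. The lines were about equal, the osteoblasts lowest, and the highest pre-osteoblast array lay just below the lowest line, for a difference of 1.45 ± 0.19 (adjusted p = 0.00123). Against pre-osteoblasts alone Mcm6 was not called (adjusted p = 0.0679). With the Kusa4b10 arrays as 1 group Mcm6 lost its call (adjusted p = 0.107), as did Pole, Prim1, Dnmt1 and Rrm2, with adjusted p between 0.0751 and 0.207. Tyms, encoding thymidylate synthase, measured 11.41, 11.73 and 11.44 in the lines, 9.20 to 9.49 in osteoblasts and 10.13 to 10.90 in pre-osteoblasts (1.61 ± 0.16). The DNA polymerase epsilon gene Pole (1.78), the primase gene Prim1 (1.49), the maintenance methyltransferase gene Dnmt1 (1.24), the mismatch repair gene Msh6 (0.94) and the histone methyltransferase gene Ezh2 (0.80) were among the others. Rrm2, the small subunit of ribonucleotide reductase, was called higher (1.62 ± 0.35, adjusted p = 0.0106) but not separated, since a pre-osteoblast array at 11.51 lay within the range of the lines, 11.08 to 11.62.

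Mitotic genes stood well above the osteoblasts and close to the pre-osteoblasts. Of 34 measured, 7 were above and called (20.6%) and none below. Against osteoblasts all 34 were called higher, with a median of 2.37, beside 14.7% of all genes. Against pre-osteoblasts none was called higher, with a median of 0.33, beside 9.96% of all genes. Without the second pre-osteoblast array the count of separated and called genes rose to 21, and with the 6 Kusa4b10 arrays fitted as 1 group it was 0. The mean level of the list was 10.71, 11.18 and 10.74 in the lines, 8.27, 9.16 and 8.12 in osteoblasts, and 10.13, 10.93 and 10.58 in pre-osteoblasts, so the second pre-osteoblast array was within the range of the lines. The kinase gene Ttk, the kinesin gene Cenpe and the kinetochore gene Ndc80 had the largest differences of the separated genes, 1.80, 1.78 and 1.75. The lines were harvested below confluence and the osteoblasts after 21 days, and growth state cannot be told apart from the groups for these lists.

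Within the pathway that the deletions target, INK4 and related inhibitors gave 2 separated and called genes of 7 (28.6%), Cdkn2a and its neighbour Cdkn2b, which encodes p15INK4b. Cdkn2b measured 10.06, 10.60 and 10.45 in the lines, 8.87 to 9.24 in osteoblasts and 9.18 to 9.46 in pre-osteoblasts (1.18 ± 0.13, adjusted p = 0.000567). Without the second pre-osteoblast array the count was 4. Rbl2, the RB relative p130 that represses E2F targets in resting cells, measured 9.51, 9.47 and 9.47 in the lines and 9.995 to 10.32 over the Kusa4b10 arrays (-0.68 ± 0.05, adjusted p = 6.17e-05). It was the one gene of 22 on the list of RB family members, E2F factors, cyclins and kinases to be below and called (4.55%). The one gene above and called was Ccne2, encoding cyclin E2 (1.33 ± 0.31, adjusted p = 0.0149), whose call was lost without line 2. That count of 1 became 0 without line 2, and 2 without line 1 or without the second osteoblast array. It became 5 without line 3 and 7 without the second pre-osteoblast array. In the fit, separated or not, 12 of the 22 were called higher and 1 lower, beside 13% and 13.6% of all genes. Against osteoblasts alone 13 were called higher and 2 lower, beside 14.7% and 12.7% of all genes. Against pre-osteoblasts alone 1 was called higher and 2 lower, beside 9.96% and 13.5% of all genes.

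Promoters were searched because the replication genes moved together. A promoter was the 300 bases around a start site, 250 before and 50 after, from RefSeq on build GRCm38.p6. Each was searched on either strand for the E2F-type letters TTTCCCGC, TTTGGCGC, TTTGCCGC or TTTCGCGC. At least 1 promoter held them in 76 of 1322 genes above (5.75%), 50 of 1523 genes below (3.28%) and 541 of all 15563 (3.48%). A gene counted once if any of its promoters matched, and 2628 genes had several promoters. Of the 13 separated and called replication genes, 10 had a promoter, and such letters occurred for 4, Mcm6, Dnmt1, Ezh2 and Msh6. For Ezh2 and Msh6 they lay only after the start, at offsets of 3 and 15 bases. Not every promoter of Dnmt1 held a match. The 250 bases before the start of Mcm6 are shown because they hold 3 matches, of which 2 overlap. They lie on the minus strand at chr1:128359706-128359955, and capitals mark the matches.
Mcm6: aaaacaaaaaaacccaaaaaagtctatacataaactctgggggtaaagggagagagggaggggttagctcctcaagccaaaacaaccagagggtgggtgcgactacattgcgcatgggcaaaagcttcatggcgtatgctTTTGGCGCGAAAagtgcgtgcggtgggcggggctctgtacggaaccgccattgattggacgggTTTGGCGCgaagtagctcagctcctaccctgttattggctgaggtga
A match describes letters and is not a measured binding site. Other letters searched in the same way were AP-1-type TGANTCA and CRE-type TGACGTCA. The former occurred in 5.98% of genes above with a promoter, 7.68% below and 8.06% of all, the latter in 3.86%, 3.48% and 2.72%. The letters CCAAT occurred in 45.4%, 41.7% and 41.7%. No motif here contains another as a whole, and a gene with several or overlapping matches was counted once.

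Of 25 imprinted genes 8 were above both states and called (32.0%, beside 7.86% of all genes), and Igf2 was the 1 gene below, a count that was 2 without line 1. Imprinted genes are expressed from the maternal or the paternal copy, and several of them regulate growth. Ndn, which encodes the growth suppressor necdin, measured 10.57, 9.04 and 8.07 in the lines and 5.46 to 5.73 over the Kusa4b10 arrays (3.60 ± 0.45, adjusted p = 0.000893). Peg10, a gene of retrotransposon origin, measured 11.50, 12.54 and 11.74 in the lines, 8.64 to 9.56 in osteoblasts and 10.04 to 11.08 in pre-osteoblasts (2.13 ± 0.32). Plagl1, a zinc finger gene that controls other imprinted genes, had 1.77 ± 0.17, and Grb10, an adaptor that restrains insulin and growth factor receptors, had 1.01 ± 0.10. Kusa4b10 was uniform across states for Ndn, and line 1 was the highest of the lines.

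The remaining genes on that list came from a single domain, which runs from Dlk1 to Dio3. In it the paternal copy expresses Dlk1, Rtl1 and Dio3 and the maternal copy expresses the noncoding Meg3 and Rian and a large cluster of miRNAs. Dlk1, a transmembrane protein that restrains adipocyte differentiation, measured 12.35, 10.46 and 9.995 in the lines, 8.22, 8.05 and 8.09 in osteoblasts, and 8.21, 8.31 and 8.22 in pre-osteoblasts (2.75 ± 0.44, adjusted p = 0.00274). Meg3 measured 9.64, 7.74 and 8.91 in the lines, 6.56, 6.63 and 6.68 in osteoblasts, and 6.42, 6.58 and 6.54 in pre-osteoblasts (2.19 ± 0.34). Dio3, which encodes the deiodinase that inactivates thyroid hormone, measured 9.85, 8.13 and 9.50 against 6.21 to 6.75 (2.68 ± 0.33). Both Kusa4b10 states were low for all of them, and Dlk1 and Dio3 of the paternal copy and Meg3 of the maternal copy were above them in every line. Rian had 1.42 ± 0.29. Rtl1, a paternally expressed gene of the same domain, was not separated, with 6.94, 6.89 and 6.99 in the lines against 6.86 to 7.17 (-0.07 ± 0.06, adjusted p = 0.476). Of 47 genes measured in the domain, 14 had the lines above and none below, and 13 of the 14 were called (27.7% of the 47). Line 1 was the highest line in 11 of those 13 and line 2 the lowest in 11. The largest was DQ267102, a noncoding transcript of the domain, with 11.35, 9.67 and 10.27 in the lines against 6.95 to 7.30 (3.33 ± 0.30, adjusted p = 0.000245).

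**Figure D4:**
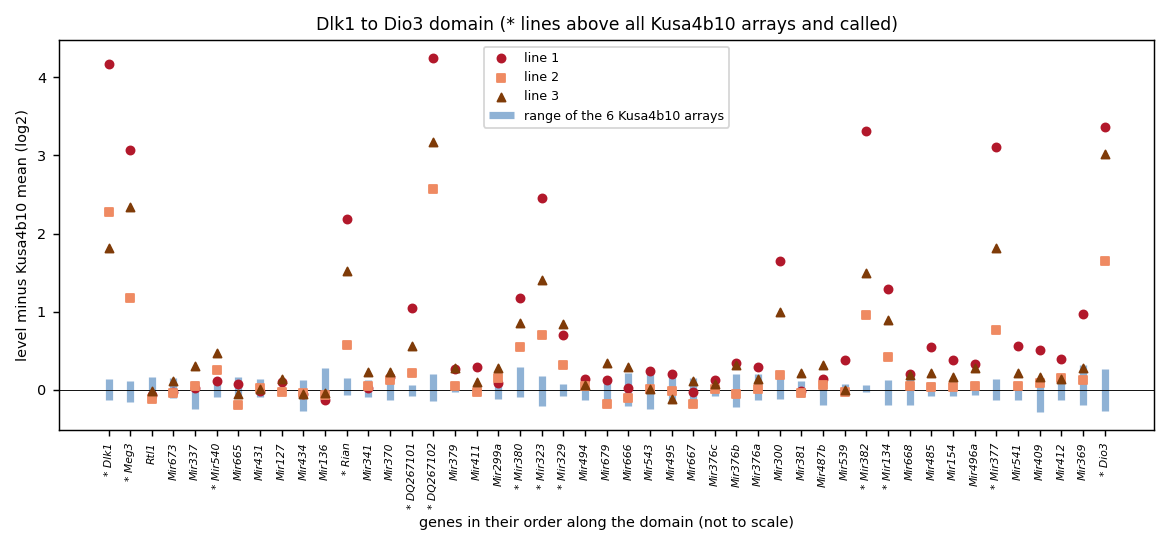
Level of each gene in the Dlk1 to Dio3 domain on the 3 line arrays, as log2 difference from the Kusa4b10 mean. Genes are in their order along the chromosome and not to scale, bars span the 6 Kusa4b10 arrays, and asterisks mark the 13 genes with the lines above and called. Line 1 lies highest for Dlk1, Meg3, DQ267102 and most starred genes, and most miRNA genes without an asterisk lie near 0.

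The array carried 272 miRNA genes, of which 10 were above and called and 27 below and called (3.68% and 9.93%, beside 7.86% and 8.35% of all genes). The domain held 7 of the 10 above, among 40 miRNA genes measured there, and none of those below. Elsewhere 232 miRNA genes gave 3 above and 27 below (1.29% and 11.6%). These probe sets do not distinguish a mature miRNA from its precursor or host transcript, and 34 of the 272 had a mean in the lines above the median gene level of 7.97, so the values speak of the locus at low signal. The mature sequences of miRNAs from the domain are printed because each has a seed of its own, with the seed, bases 2 to 8 from the 5′ end, in capitals (RefSeq, GRCm38.p6).
mmu-miR-382-5p: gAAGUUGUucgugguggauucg
mmu-miR-377-3p: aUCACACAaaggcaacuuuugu
mmu-miR-323-3p: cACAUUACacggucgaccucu
mmu-miR-134-5p: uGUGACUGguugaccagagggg
Mir382 measured 7.82, 5.46 and 6.00 in the lines and 4.48 to 4.57 over the Kusa4b10 arrays (1.92 ± 0.43, adjusted p = 0.0126, and 1.23 without line 1). Mir377 measured 7.57, 5.22 and 6.27 against 4.32 to 4.59 (1.90 ± 0.41, adjusted p = 0.011). Mir323 and Mir134 followed with 1.52 ± 0.31 and 0.86 ± 0.16. Line 1 was highest and line 2 lowest in each of these 4, the same order as in Meg3.

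Among the miRNA genes below, several shared seeds. All 3 measured genes of the miR-103 and miR-107 seed were below and called, both genes of the miR-29 seed, both of the miR-365 seed, and 3 of 6 of the miR-15, miR-16 and miR-195 seed. For the let-7 and miR-98 seed it was 2 of 9, and for that of miR-34a 1 of 4. The sequences are grouped by seed, in capitals, to show which of them share it.
mmu-miR-103-3p: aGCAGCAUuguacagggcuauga
mmu-miR-107-3p: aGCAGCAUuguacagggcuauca
mmu-miR-15a-5p: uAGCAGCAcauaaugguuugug
mmu-miR-16-5p: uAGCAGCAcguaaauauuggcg
mmu-miR-195a-5p: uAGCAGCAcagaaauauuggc
mmu-miR-29a-3p: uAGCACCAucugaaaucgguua
mmu-miR-29b-3p: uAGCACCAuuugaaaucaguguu
mmu-miR-365-3p: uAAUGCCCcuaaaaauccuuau
mmu-let-7c-5p: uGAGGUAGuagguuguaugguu
mmu-miR-98-5p: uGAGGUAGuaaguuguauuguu
mmu-miR-34a-5p: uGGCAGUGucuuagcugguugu
Mirlet7c-1, of the let-7 family that restrains growth-promoting genes, measured 6.80, 5.58 and 5.96 in the lines, 8.22 to 8.76 in osteoblasts and 7.14 to 8.35 in pre-osteoblasts (-1.97 ± 0.32, adjusted p = 0.00311). Mir29a, whose mature product targets collagen transcripts, measured 4.71, 5.15 and 4.78 against 5.85 to 6.45 (-1.23 ± 0.11, adjusted p = 0.000206), and its partner in the cluster, Mir29b-1, had -0.50 ± 0.06. Mir103-2 measured 6.20, 6.29 and 6.19 against 6.98 to 7.32 (-0.96 ± 0.05, adjusted p = 2.72e-05). The lines were tight and separate from both states for Mir29a and Mir103-2. Mir107 had -0.88, Mir103-1 -0.28, Mir365-1 -0.91 and Mir365-2 -0.78. Mir15a and Mir16-1, which lie in 1 cluster, had -0.74 ± 0.15 and -0.62 ± 0.13. Mir195a (-0.29) lost its call without line 1, without line 2, without single Kusa4b10 arrays and under both other scalings, and Mir98 (-0.35) lost it without line 1, without the first or the third osteoblast array, without the third pre-osteoblast array and with the Kusa4b10 arrays as 1 group. Mir16-1 also lost its call in that last setting (adjusted p = 0.0576).

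**Figure D5:**
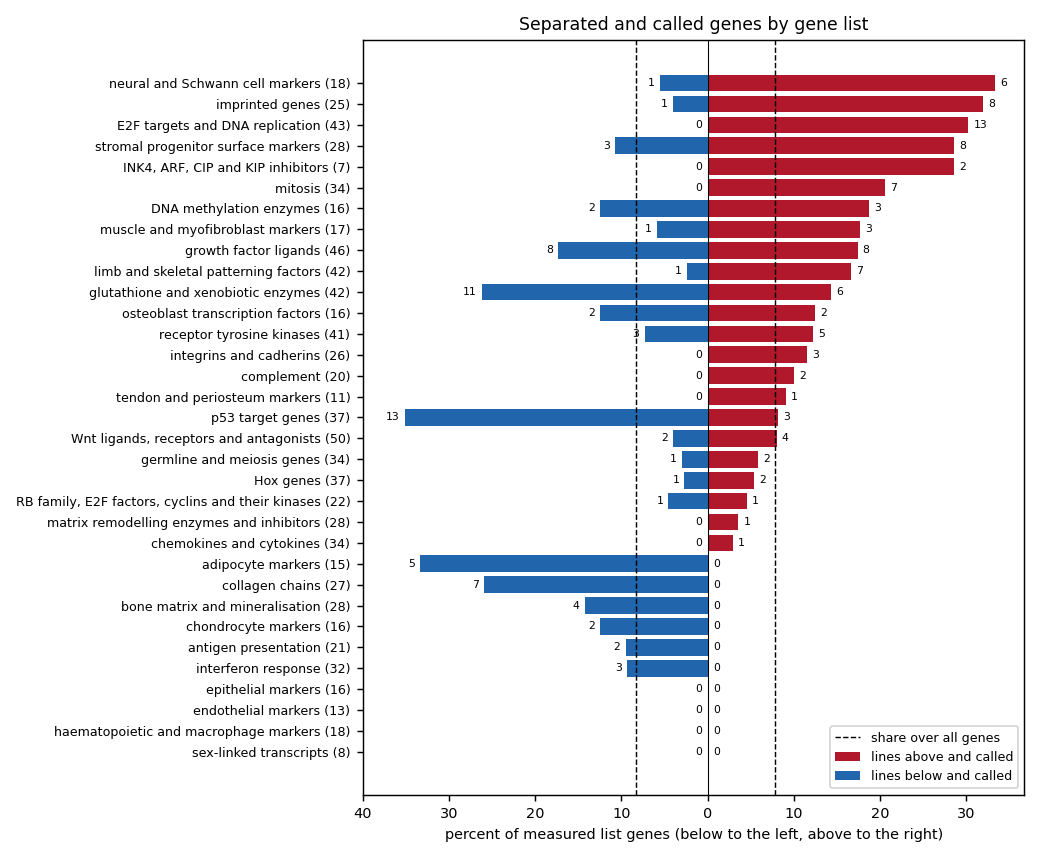
Share of the measured genes of each of 33 lists that had the lines above all Kusa4b10 arrays and were called (red, to the right) or below and called (blue, to the left), in percent. Numbers at the bars are gene counts, the number measured stands in parentheses, and dashed lines mark the shares over all genes, 7.86% and 8.35%. The longest bars are those of p53 targets, adipocyte markers and glutathione and xenobiotic enzymes on the left and of neural markers, imprinted genes and replication genes on the right.

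Surface proteins used to recognise stromal progenitors were above both states in 8 of 28 genes and below in 3 (28.6% and 10.7%). The count below was 1 with arrays centred on their medians and 0 with the Kusa4b10 arrays as 1 group. Besides Thy1 and Cd34, Eng, the endoglin co-receptor for transforming growth factor beta, measured 10.63, 10.45 and 10.72 in the lines, 7.48 to 7.76 in osteoblasts and 7.70 to 7.81 in pre-osteoblasts (2.92 ± 0.08, adjusted p = 1.47e-06). Alcam, an adhesion molecule of the immunoglobulin superfamily, measured 10.22, 11.38 and 10.03 against 7.85 to 8.92 (1.93 ± 0.31). Pdpn, the mucin-type glycoprotein podoplanin, measured 12.05, 11.96 and 11.93 against 10.54 to 10.91 (1.30 ± 0.09). The spread over the lines was small beside the distance to Kusa4b10 for Eng and Pdpn. Cd24a went the other way, with 10.24, 8.87 and 11.18 in the lines, 11.43 to 11.47 in osteoblasts and 12.92 to 13.15 in pre-osteoblasts (-2.13 ± 0.41, adjusted p = 0.00631, and 0.0565 with the Kusa4b10 arrays as 1 group). Markers of neural and Schwann cells had 6 of 18 genes above and 1 below (33.3% and 5.56%). Ncam1, the neural cell adhesion molecule that stromal cells also carry, measured 12.01, 11.88 and 12.06 in the lines, 9.19, 9.59 and 8.92 in osteoblasts, and 8.17, 8.83 and 8.44 in pre-osteoblasts (3.13 ± 0.17, adjusted p = 2.81e-05). Map2, a microtubule-associated protein, had 1.41 ± 0.15 and Uchl1, a ubiquitin hydrolase, 1.07 ± 0.22. The mean level of this list was between 6.71 and 6.90 over the Kusa4b10 arrays.

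Of 26 integrins and cadherins 3 were above and called (11.5%) and none below. The integrin genes Itgav, Itga5, Itga6, Itgb1 and Itga11 were placed on the stromal progenitor list instead, where Itgav was above and called. Cdh11, the osteoblast cadherin, measured 12.75, 12.32 and 13.12 in the lines, 10.62, 10.60 and 10.59 in osteoblasts, and 7.34, 7.33 and 7.51 in pre-osteoblasts (3.73 ± 0.15, adjusted p = 6.77e-06). The order was the same on every array, lines above osteoblasts and osteoblasts above pre-osteoblasts. On the Wnt list 4 of 50 genes were above and 2 below (8.0% and 4.0%), near 7.86% and under 8.35% of all genes. The count above was 8 without line 2 and 2 to 6 under the settings that keep all arrays and genes. Wnt5a, a ligand of the β-catenin-independent branch, measured 9.31, 8.57 and 9.37 in the lines, 6.67 to 6.73 in osteoblasts and 5.97 to 6.05 in pre-osteoblasts (2.73 ± 0.16, adjusted p = 3.64e-05). Ror2, a receptor tyrosine kinase that binds Wnt5a, measured 9.68, 9.73 and 10.22 against 8.40 to 8.77 (1.30 ± 0.13). Both the ligand and the receptor were thus above both states in every line. The Wnt receptor genes Fzd3 and Fzd2 had 1.49 ± 0.05 and 0.91 ± 0.16, and Lrp5, the co-receptor of the β-catenin branch, had -0.74 ± 0.08. Fzd2 lost its call with the Kusa4b10 arrays as 1 group (adjusted p = 0.195). The Wnt antagonist gene Wif1, fixed by the naming rule, was neither separated nor called (-0.89 ± 0.44, adjusted p = 0.19). Its difference was -1.74 against osteoblasts alone (adjusted p = 0.0357) and -0.03 against pre-osteoblasts alone (adjusted p = 0.975).

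Of 41 receptor tyrosine kinases, 5 were above and called and 3 below (12.2% and 7.32%), and the latter count was 5 without line 1. Met, the receptor for hepatocyte growth factor, measured 9.52, 10.57 and 9.72 against 8.18 to 8.68 (1.47 ± 0.23). Epha3, an ephrin receptor, measured 9.30, 10.91 and 7.73 against 6.12 to 7.03 (2.79 ± 0.56, adjusted p = 0.00758). Mertk, a receptor for the uptake of dying cells, measured 7.46, 7.72 and 7.45 in the lines, 10.52 to 11.20 in osteoblasts and 9.21 to 9.91 in pre-osteoblasts (-2.64 ± 0.18, adjusted p = 7.36e-05). Growth factor ligands were above in 8 of 46 genes and below in 8 (17.4% each). The count above was 5 without the first or the third osteoblast array or the third pre-osteoblast array, and 4 to 10 under the settings that keep all arrays and genes, 4 with the Kusa4b10 arrays as 1 group. Among those above were the heparin-binding cytokine Ptn (2.12 ± 0.27), Bmp5 (1.63 ± 0.34), Fgf10 (1.23 ± 0.23), the EGF receptor ligand Hbegf (0.84 ± 0.14) and Bmp2 (0.72 ± 0.13). Those below included Igf2, the placental growth factor gene Pgf (-2.44 ± 0.16), the vessel-stabilising ligand Angpt1 (-1.71 ± 0.17), Tgfb1 (-1.37 ± 0.09), Bmp4 (-1.13 ± 0.17) and Vegfb (-1.05 ± 0.09). Bone morphogenetic protein genes were on both sides, and Ptn lost its call with the Kusa4b10 arrays as 1 group (adjusted p = 0.0866).

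Genes of bone matrix and of collagen chains were below both states or not separated. Of 27 collagen chains 7 were below and called (25.9%) and none above. The chains Col1a1, Col1a2, Col5a1, Col5a2 and Col11a1 were placed on the bone matrix list instead. Col4a2, a chain of basement membrane collagen, measured 8.77, 8.14 and 8.61 in the lines, 10.36 to 10.61 in osteoblasts and 9.60 to 9.67 in pre-osteoblasts (-1.57 ± 0.13, adjusted p = 0.00016), and its partner Col4a1 had -1.45 ± 0.14. Col10a1, the collagen of hypertrophic cartilage, measured 6.65, 6.63 and 7.95 against 8.91 to 11.40 (-2.79 ± 0.46). The type VI chains Col6a2 and Col6a1 had -0.93 and -0.73, the latter with an adjusted p of 0.0646 when the Kusa4b10 arrays were 1 group. Col14a1, a fibril-associated collagen, was not separated, with 11.32, 7.17 and 12.39 in the lines against 7.06 to 7.41, high in lines 1 and 3 and within the Kusa4b10 range in line 2 (2.98 ± 0.97, adjusted p = 0.0536). Of 28 genes of bone matrix and mineralisation 4 were below and called (14.3%). Against osteoblasts alone their median was -0.26, with 11 called lower and 1 higher, beside 12.7% and 14.7% of all genes. Against pre-osteoblasts alone it was 0.17, with 3 called lower and 4 higher, beside 13.5% and 9.96% of all genes. Without line 2, the count above and called was 2 on this list and 2 on the collagen list. Tnfrsf11b, which encodes osteoprotegerin, the decoy receptor that limits osteoclast formation, measured 7.26, 7.37 and 8.90 in the lines, 10.18 to 11.04 in osteoblasts and 10.34 to 10.72 in pre-osteoblasts (-2.65 ± 0.37, adjusted p = 0.00156). Serpinh1, a collagen chaperone, had -0.38 ± 0.09. Osteoblast transcription factors had 2 genes above and 2 below of 16 (12.5% each). The count below was 1 under either other scaling and 0 with the Kusa4b10 arrays as 1 group. Zfp521, a zinc finger partner and antagonist of Runx2, measured 11.53, 10.93 and 11.27 in the lines, 9.09 to 9.44 in osteoblasts and 7.39 to 7.97 in pre-osteoblasts (2.80 ± 0.16, adjusted p = 3.64e-05). Twist1, which delays osteoblast maturation, measured 9.98, 10.25 and 10.20 against 8.96 to 9.41 (0.91 ± 0.11). The Notch target Hey1 had -1.19 ± 0.12 and the homeobox gene Dlx3 -0.65 ± 0.08, and for both the pre-osteoblasts lay much nearer to the lines than the osteoblasts did. Both lost the call with the Kusa4b10 arrays as 1 group (adjusted p = 0.214 and 0.244). Limb and skeletal patterning factors had 7 of 42 genes above, led by Meox2, and 1 below (16.7% and 2.38%), the latter 2 without line 2 and 3 without line 3. Hox genes had 2 of 37 above and 1 below (5.41% and 2.7%), both shares under those of all genes. The Hox count above was 4 without line 3 and 5 under either other scaling. The count below was 5 without line 1, and 2 without line 3 or without the first or the second array of either Kusa4b10 state. In the fit, separated or not, 4 Hox genes were called higher and 7 lower, beside 13% and 13.6% of all genes.

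Adipocyte markers were below in 5 of 15 genes (33.3%) and above in none, with a median difference of -1.52. That median was -2.09 against osteoblasts alone, where 13 were called lower, beside 12.7% of all genes. Against pre-osteoblasts alone it was -0.11, with 3 called lower and 1 higher, beside 13.5% and 9.96% of all genes. The mean level of these markers was between 7.39 and 7.77 in the lines. It was between 8.00 and 8.40 in pre-osteoblasts and between 9.73 and 10.29 in osteoblasts. The Kusa4b10 osteoblast cultures thus carried the highest adipocyte marker level, and its part in the difference was not tested. Pparg, the master regulator of adipocytes, measured 10.66, 9.96 and 9.81 in the lines, 11.62 to 12.16 in osteoblasts and 11.61 to 11.84 in pre-osteoblasts (-1.64 ± 0.19, adjusted p = 0.000732). Its partner Cebpa had -1.24 ± 0.22, and Lpl, lipoprotein lipase, had -1.70 ± 0.40 (adjusted p = 0.0159), which was -1.09 without line 2. In bulk cultures, fewer cells of a type and less RNA per cell cannot be told apart.

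Enzymes of glutathione and xenobiotic metabolism were below in 11 of 42 genes and above in 6 (26.2% and 14.3%). Aldh3a1, an aldehyde dehydrogenase, measured 6.64, 7.08 and 7.03 in the lines, 10.04 to 10.61 in osteoblasts and 8.52 to 8.69 in pre-osteoblasts (-2.52 ± 0.14, adjusted p = 2.95e-05). Ephx1, the microsomal epoxide hydrolase, measured 10.61, 10.03 and 9.94 against 12.05 to 12.68 (-2.24 ± 0.14). Cbr2, a carbonyl reductase, had -2.35 ± 0.33 and the glutathione transferase Gsta4 -1.39 ± 0.22. Those above were led by Gpx3, and included the hydroxysteroid dehydrogenase Akr1c18 (1.93 ± 0.21), Gstm5 (0.90 ± 0.11) and Gpx1 (0.69 ± 0.07). Cbr2 and Gstm5 lost their call with the Kusa4b10 arrays as 1 group (adjusted p = 0.0515 and 0.0664). Among genes of DNA methylation, 3 of 16 were above and 2 below (18.8% and 12.5%), and the count above was 5 with arrays centred and 1 with the Kusa4b10 arrays as 1 group. Tet1, which oxidises 5-methylcytosine, measured 8.35, 8.06 and 8.61 against 9.57 to 10.12 (-1.47 ± 0.16, adjusted p = 0.000433), whereas Dnmt1 and the glycosylase gene Mbd4 (0.76 ± 0.07) were above.

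Interferon response genes were below both states in 3 of 32 genes (9.38%), a share near that of all genes (8.35%), and the count was 19 without line 1 and 7 without the second osteoblast array. Their mean level was 9.88, 8.74 and 8.18 in lines 1, 2 and 3, 9.75, 9.38 and 9.90 in osteoblasts, and 11.03, 9.98 and 11.11 in pre-osteoblasts, so line 1 lay among the Kusa4b10 arrays and lines 2 and 3 below them. Trim30a, an interferon-inducible regulator of innate signalling, measured 10.14, 7.87 and 6.74 in the lines, 11.20 to 11.70 in osteoblasts and 12.42 to 12.81 in pre-osteoblasts (-3.79 ± 0.62, adjusted p = 0.003). Bst2, the virus-tethering protein tetherin, had -1.92 ± 0.34, and Irf9, the DNA-binding subunit of the interferon-activated complex, -1.24 ± 0.22 (adjusted p = 0.0508 with the Kusa4b10 arrays as 1 group). Irf7, the regulator of interferon genes, was called lower (-2.60 ± 0.57, adjusted p = 0.0113, and 0.0719 with the Kusa4b10 arrays as 1 group) but overlapped, with 9.46 in line 1 against a lowest Kusa4b10 value of 9.14. Antigen presentation had 2 of 21 genes below (9.52%), the class I gene H2-Q4 (-2.59 ± 0.32) and the peptide transporter gene Tap2 (-0.90 ± 0.15), a count that was 5 without line 1. Complement and its inhibitors had 2 of 20 genes above (10%), Serping1, the C1 inhibitor, which measured 12.48, 10.68 and 12.54 against 6.61 to 8.998, and C2, which measured 8.92, 8.79 and 8.94 against 6.45 to 6.82 (2.30 ± 0.07, adjusted p = 2.01e-06). Among matrix remodelling enzymes 1 of 28 was above (3.57%), the urokinase gene Plau (1.96 ± 0.30), and that count was 6 without line 2. Among chemokines and cytokines 1 of 34 was above (2.94%), Cxcl14, which measured 8.14, 8.01 and 10.53 against 6.47 to 6.69 (2.30 ± 0.50, adjusted p = 0.0108, and 1.48 without line 3), and the count was 2, 5 and 3 without lines 1, 2 and 3.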

How the data were processed

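RNA from 3 osteosarcoma lines, 3 Kusa4b10 osteoblast cultures and 3 pre-osteoblast cultures was hybridised to 1 array each. The deposited values are log2 levels, normalised by the authors with RMA, a background correction, quantile normalization and probe summary, on build mm9, per the submitters' processing notes; the RMA version is not given in the sources used here. The array medians were 7.43 to 7.56. No counts exist, so the number of arrays limits precision.

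Of 35556 probe sets, 21789 carried 1 gene symbol, 1621 several and 12146 none. Genes with several probe sets (999) were represented by that with the highest mean over the 9 arrays, leaving 19938 genes with no filter on level. limma 3.58.1 in R 4.3.3 fitted 3 group means to all 9 arrays, with 6 residual and 2.19 prior degrees of freedom. Further contrasts were also read from that fit, osteosarcoma against each state and osteoblast against pre-osteoblast. The test was two-sided with Benjamini-Hochberg adjustment over all genes, and it was tested on simulated data. The p-values rest on the spread between these samples, in which each line is a sample.

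The genes, the 33 lists and the rule for naming were chosen with earlier results of these data known. Named genes are Cdkn2a, Thy1, Cd34, Rb1, Wif1 and the 15 largest differences each way (called, higher side above the median gene level, symbol not clone-like). They also include up to 4 called members and the largest non-member per list, and those nearest the threshold. Those with the widest range over lines and those with the largest state difference complete the rule. Not every gene under that rule is described. Other genes and the miRNAs named were chosen after their values were seen. Alternatives were other scalings, filters, array weights, Kusa4b10 as 1 group, and each array left out.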

Additional observations from a re-analysis of the deposited data

Results flagged for a closer look

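Probe sets without a single gene symbol were not part of the gene comparison. Among 13767 of them, the 3 lines lay above all 6 Kusa4b10 arrays in 706 (5.13%) and below in 1596 (11.6%), with a difference of at least 2-fold in 118 and 380. They carry no gene name here, and their genes were not analysed.

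For 6 separated genes the effect of the lines against osteoblasts differed from that against pre-osteoblasts, tested as the osteoblast minus pre-osteoblast contrast of the same limma fit. Adipoq differed between the states by 4.65 ± 0.52 (SE, adjusted p = 0.000493), with the lines lower by -6.10 against osteoblasts and -1.45 against pre-osteoblasts. Gpd1 differed by 4.23, with -4.41 and -0.19, and Cox8b, a subunit of cytochrome c oxidase, by 3.37, with -3.50 and -0.13. The opposite held for Trim30d, which differed by -4.04, with -1.31 and -5.35. Sprr1a, a cornified envelope precursor, differed by -3.54, with -0.77 and -4.30. Clca3a1, of the chloride channel accessory family, differed by -3.50, with -1.24 and -4.74. These 6 have the largest state difference among separated genes by the naming rule, so their size follows from how they were chosen.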

How the results depend on the processing

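With 1 array left out, genes called higher numbered 2003 to 2635 and lower 2132 to 2572, and separated genes numbered 1708 to 2395 above and 1970 to 2960 below, the last without line 3. Genes separated and called numbered 1415 to 2015 above and 1517 to 1986 below. Under quantile normalization again 2616 genes had the lines above and 1616 below, and with arrays centred on their medians 2700 and 1369. With Kusa4b10 as 1 group, 1187 genes were called higher and 1176 lower. Requiring a gap of 0.5 left 275 above and 213 below, and a gap of 1 left 102 and 47. At an adjusted p below 0.01, 1484 genes were higher and 1479 lower. Of 258 called genes followed through up to 18 alternatives, 162 kept call and direction in all of them, 96 lost the call in at least 1 and none reversed. Of 17 genes not called, 11 were called under some alternative. Stmn2 (-0.14) reversed to 0.03 without line 1, 0.87 without line 2 and 0.02 without the second osteoblast array, and Cfb (-0.69) to 0.037 without line 2; leaving out single arrays gave -1.32 to 0.87 for Stmn2 and -1.54 to 0.037 for Cfb, and the cause was not tested.

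Same-numbered Kusa4b10 osteoblast and pre-osteoblast samples had deviations from their group means that correlated at 0.15, 0.18 and 0.03. For differently numbered samples the correlations were -0.16 to 0.08. Samples 1 and 2 thus gave the highest values, and whether the numbers pair the samples is not settled here. With the replicate number as a random block, 2573 genes were called higher and 2690 lower, and 1559 above and 1660 below were separated and called.

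Low signal limits the miRNA genes. Leaving out an array can only keep or add separated genes. Counts of separated genes without single arrays therefore show how many more genes 1 array kept from separating, not what a separation rests on. Counts of genes both separated and called can also fall, because a call can be lost. For growth factor ligands above the count fell from 8 to 5 without some single Kusa4b10 arrays. Of the 258 called genes followed, 45 (17.4%) lost their call with at least 1 array left out.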
